A study of Mus musculus and Homo sapiens with 18 samples.

Results

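The antioxidant and NRF2 target genes are a list of 40 mouse genes, taken by symbol: the transcription factor Nfe2l2 (NRF2) and its inhibitor Keap1, and 38 genes that make, use or regenerate glutathione and thioredoxin, remove superoxide and peroxides, conjugate electrophiles, or bind iron and metals. All 40 were in the 2 mouse count tables, among 46882 genes of the lens table and 54838 of the table of NLPCs, lens progenitor-like cells that the study grew from neural stem cells. In the table of the human lens epithelial line HLE-B3, with 60880 genes, 39 were found by their upper-case symbols (TXN, FTL and MT2A for Txn1, Ftl1 and Mt2), and no row is named MT1. After the filter on low counts 39 members were tested in the lens, 37 in NLPCs and 37 in HLE-B3 cells.

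RNA was sequenced from 18 libraries, 3 in each of 6 groups. The control lenses (Ctrl) came from Nestin-CreERT2; QkL/+ mice, which carry 1 floxed allele of Qk, the gene of an RNA-binding protein, and the Qk-iCKO lenses from Nestin-CreERT2; QkL/L mice. Control littermates received tamoxifen too, at postnatal days 7 and 8, and lenses were dissected at days 17 to 19. The Nestin promoter drives the Cre, so recombination is limited to cells in which that promoter is active, and the floxed segment is exon 2. NLPCs were grown from neural stem cells of Nestin-CreERT2; QkL/L brains at postnatal day 1, with 100 nM 4OHT for the group labelled Qk-/- and none stated for the group labelled WT, then with Noggin at 100 ng/ml for 6 days, and for 12 days with bFGF at 100, BMP7 at 20 and BMP4 at 20 ng/ml. The QKI KO group of HLE-B3 is a pool of cells edited with CRISPR and enriched by puromycin, set against unedited WT cells. No label says that the libraries of the cultures came from separate cultures, so their p-values measure only the spread between these libraries, which may be technical.

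NRF2 is held at a low level in the cytoplasm by KEAP1, an adaptor that marks it for degradation. When oxidants or electrophiles modify KEAP1, NRF2 enters the nucleus, pairs with a small MAF protein and binds antioxidant response elements near genes of glutathione synthesis, the thioredoxin system and drug conjugation. The lens keeps glutathione at a high level, which protects its long-lived crystallins from oxidation, and loss of glutathione is a known feature of cataract. Metallothioneins, small cysteine-rich proteins that bind zinc and copper, respond to metals, glucocorticoids and oxidants.

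The core of the antioxidant response element, searched on both strands as TGACNNNGC, was found in the 250 bases before the start of 8 of the 34 members in the RefSeq promoter table (GRCm38.p6), namely Nfe2l2, Gclm, Txnrd1, Prdx1, Sod1, Gstm5, Mgst1 and Mt2. Some members have several starts, and 8 of their 43 windows (18.6%) held the core, against 10.2% of all 32851 windows. Hmox1, Gclc, Gsr, Prdx6, Sod3 and Gsta4 were not matched. The 3 stretches below are shown because their genes went different ways: Txnrd1 passed the test in all 3 systems, Prdx1 in HLE-B3 alone and Gclm in none. Each is written 5′ to 3′ on the gene's strand with 40 bases on either side of the match, which is in capitals and lies on the opposite strand, 92 to 84 bases before the start in Txnrd1 (chr10:82859074-82859162, plus strand), 133 to 125 in Prdx1 (chr4:116685426-116685514, plus strand) and 134 to 126 in Gclm (chr3:122245383-122245471, plus strand). No annotated exon overlaps them. The start meant in Txnrd1 is an internal one: the annotated gene begins upstream, at base 82833951, so that stretch lies within the gene.
Txnrd1: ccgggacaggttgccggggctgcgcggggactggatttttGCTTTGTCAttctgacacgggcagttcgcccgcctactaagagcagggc
Prdx1: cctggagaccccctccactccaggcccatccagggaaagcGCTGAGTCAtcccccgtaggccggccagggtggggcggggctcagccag
Gclm: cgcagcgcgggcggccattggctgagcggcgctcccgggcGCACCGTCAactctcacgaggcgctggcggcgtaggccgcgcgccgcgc

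Lens libraries held 10319320 to 16425331 counts, NLPC libraries 28154202 to 68243360 and HLE-B3 libraries 69190864 to 81384471. Crystallin genes took 56.3 to 66.9% of the counts of each lens library, so values scaled to the library total are held down in that tissue. The lens library Qk-iCKO 1 stood apart with a TMM factor of 1.48 (0.888 to 0.962 in the other 5), and NLPC Qk-/- 2 was the shallowest NLPC library. Counts on the whole Qk gene, which include exons outside the deleted part and so check the deletion only in part, differed by a log2 fold change of −0.31 ± 0.14 (SE) in the lens (adjusted p = 0.20) and fell by 1.34 ± 0.05 in HLE-B3 cells (adjusted p = 1.9e-11). In NLPCs, Qk-/- libraries had more counts on the whole Qk gene than WT (0.41 ± 0.09, adjusted p = 0.0270). Since exons outside the deleted part are counted too, these counts cannot decide whether the label holds. By immunofluorescent staining, the paper reports a complete loss of Qki in treated neural stem cells and NLPCs. The figures it cites are a staining of neural stem cells and an immunoblot of NLPCs, both for a nuclear isoform of Qki. The deletion itself was not tested here, so every NLPC direction below is one between libraries as labelled. Lens fibre markers summed to 1.62 to 2.53 CPM (counts scaled to library size) in NLPC WT and 4.97 to 5.68 in HLE-B3 WT, against 364262 to 373508 in lens Ctrl, and Foxe3, a lens epithelium marker, had 1 count over all 6 NLPC libraries.

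In the control libraries, levels were compared per length, in CPM per kilobase of exon (mean of 3 libraries ± SD). The highest member of the Ctrl lens was Hmox1, the haem-degrading oxygenase, at 637 ± 55.9, next to Ftl1, the ferritin light chain, at 506 ± 53.4. The libraries of these 2 genes did not overlap, though by a narrow margin (at least 575 against at most 567). Both stood far above Gpx1 at 87.9 ± 11.2 and Gstm1 at 84.5 ± 9.48, which overlapped. At the other end of the lens order were Mt1 (0.639 ± 0.131), Gpx3 (0.367 ± 0.149), Mt2 (0.115 ± 0.0117), Sod3 (0.0842 ± 0.0903) and Glrx (0.0601 ± 0.0539).

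NLPC WT libraries had the reverse order for several of these genes. Mt1 was their highest member, at 1581 ± 54.1 on the same scale, followed by Fth1, the ferritin heavy chain, at 478 ± 59.3, and Prdx2, a cytosolic peroxiredoxin, at 127 ± 8.23. Hmox1 stood at 16.0 ± 2.53, and Mt2, the gene beside Mt1, had no count in any WT library. Whether the counting or the cells give this 0 was not tested. HLE-B3 WT cells were led by FTL (422 ± 35.0), FTH1 (330 ± 13.6), MT2A (254 ± 21.6) and HMOX1 (118 ± 3.99), with MGST1 at 0.0603 ± 0.0238 among the lowest. The tables were counted and scaled apart, so these levels are set side by side with no test between systems.

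**Figure D1:**
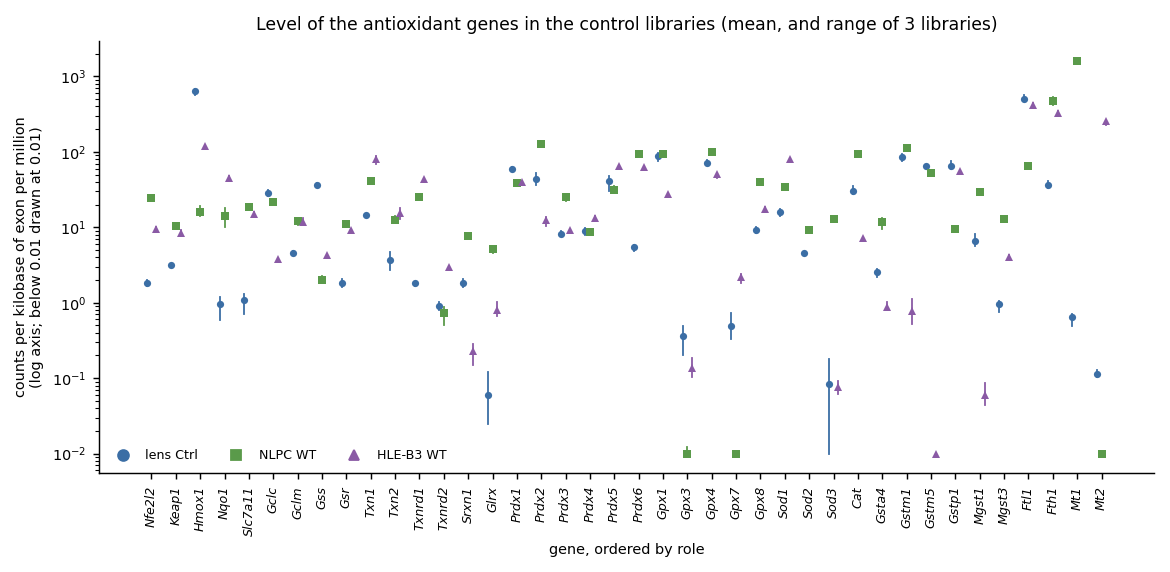
Level of each member in the control libraries of lens, NLPCs and HLE-B3 cells, in CPM per kilobase of exon on a log axis. Points are means of 3 libraries, lines their range, and values below 0.01 are drawn at 0.01. Hmox1 (637) and Ftl1 (506) lead in the lens, Mt1 (1581) in NLPCs and FTL (422) in HLE-B3 cells, while Mt1 is at 0.639 in the lens.

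The comparison of Qk-iCKO with Ctrl lenses asked which members differ in the lens when Qk is deleted there. Of 39 members tested, 7 rose (17.9%, where 8.38% of all 12201 genes tested rose) and 3 fell (7.69%, where 3.88% fell), by edgeR's quasi-likelihood test with Benjamini-Hochberg adjustment over all genes tested. Glrx, Gpx3 and Mt2 passed the filter on low counts through the Qk-iCKO libraries, in which they are high, so they had to differ and their count supports nothing. Mt1 also passed it only with the Qk-iCKO libraries, so its place in the count supports nothing either. With at least 10 counts asked of every library, Glrx, Gpx3 and Mt2 were not tested and 4 members rose, Mt1 among them, while 610 of 10510 genes did. Metallothioneins, 4 genes of the thioredoxin and glutaredoxin system and Gpx3 were higher, and 2 enzymes of glutathione synthesis and a glutathione transferase were lower. The 3 libraries of each group did not overlap for 10 members that were higher (25.6%, where 18.2% of all genes were) and 4 that were lower (10.3%, where 17.1% were). The median log2 fold change of the members was 0.15, and that of all genes tested 0.01.

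Cell type markers moved in the same libraries. Of 13 macrophage and microglia markers, all 11 that were tested rose, where 8.38% of all genes tested did. Their summed level went from 2.82 to 5.77 CPM in Ctrl lenses to 164 to 212 in Qk-iCKO lenses. Aif1 had no count in any Ctrl lens. At such low Ctrl levels most of these markers passed the filter on low counts through the Qk-iCKO libraries, so the count of 11 supports nothing. Pigment epithelium, iris and ciliary body markers summed to 4.26 to 9.28 in Ctrl lenses and to 139, 24.0 and 8.68 in Qk-iCKO 1, 2 and 3, with none of 4 tested markers past the threshold. Retina markers were uneven among the Ctrl lenses, at 59.4, 420 and 0.892 in Ctrl 1, 2 and 3. They summed to 68.3, 25.6 and 10.6 in Qk-iCKO 1, 2 and 3, with none of 5 tested past the threshold. Fibroblast markers (1 of 4 tested higher, 63.7 to 79.2 against 104 to 173) and endothelial markers (2 of 5 higher, 4.31 to 8.58 against 13.6 to 23.7) lay higher too, and astrocyte markers lower (1 of 5, 626 to 684 against 277 to 338). Lens fibre markers summed to 171728, 322889 and 290836 in the Qk-iCKO lenses, with 1 of 11 tested lower. The part of these cells in the values below was not tested, and in whole lenses a change in the cells present and a change in RNA per cell cannot be told apart.

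Among the regulators neither gene passed the test in the lens. Nfe2l2 had normalised counts (counts scaled to the mean effective library size of the system) of 110, 84.4 and 96.3 in Ctrl lenses 1 to 3 and 114, 131 and 105 after deletion (log2 fold change 0.27 ± 0.17, adjusted p = 0.342). Keap1 had 206, 202 and 214 against 241, 213 and 187 (0.05 ± 0.14, adjusted p = 0.862). In both genes the groups overlapped.

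Hmox1, whose product degrades haem to biliverdin, iron and carbon monoxide, had 17104, 13547 and 16588 normalised counts in Ctrl lenses and 8067, 17888 and 18445 in Qk-iCKO lenses (−0.09 ± 0.32, adjusted p = 0.886). Only Qk-iCKO 1 was low, and without it the log2 fold change was 0.21. Nqo1, a quinone reductase and textbook NRF2 target, had 26.7, 22.9 and 13.2 against 38.7, 44.8 and 29.9. Its groups did not overlap, and the difference of 0.86 ± 0.34 missed the threshold (adjusted p = 0.146).

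Glutathione supply was the group with the clearest falls. Gclc, the catalytic subunit of glutamate-cysteine ligase, the rate-limiting enzyme of glutathione synthesis (GRCm38 chr9:77754535-77794485), had 1581, 1298 and 1730 normalised counts in Ctrl lenses and 775, 682 and 874 in Qk-iCKO lenses. It fell by 0.98 ± 0.17 on the log2 scale (adjusted p = 0.0112), 1.98-fold. Gss, glutathione synthetase, which adds glycine in the next step (GRCm38 chr2:155563181-155592810), had 2929, 3068 and 3071 against 936, 1390 and 1283. Every Qk-iCKO lens was far below every Ctrl lens, and the gene fell by 1.33 ± 0.18 (adjusted p = 0.00512), 2.51-fold.

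Gclm, the modifier subunit that pairs with Gclc, did not follow it, with 419, 376 and 437 against 469, 337 and 288 (−0.17 ± 0.20, adjusted p = 0.626). Slc7a11, the cystine importer that supplies cysteine, had 261, 135 and 246 against 483, 448 and 253 (0.89 ± 0.32, adjusted p = 0.120). Qk-iCKO 3 lay among the Ctrl lenses, and without it Slc7a11 passed (1.12, adjusted p = 0.0469). Gsr, which regenerates reduced glutathione, had 68.2, 77.0 and 64.5 against 116, 89.7 and 90.9 without overlap, but missed the threshold (0.50 ± 0.18, adjusted p = 0.120).

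In the thioredoxin system 4 of 6 members rose, where 8.38% of all genes tested did. The 4 include Glrx, which passed the filter on low counts through the Qk-iCKO libraries and adds nothing to the count. Srxn1, sulfiredoxin, which repairs over-oxidised peroxiredoxins, had 83.2, 68.8 and 66.2 normalised counts in Ctrl lenses and 177, 152 and 191 in Qk-iCKO lenses, a rise of 1.25 ± 0.17 (adjusted p = 0.00451). The cytosolic and mitochondrial thioredoxin reductases rose together. Txnrd1 had 192, 157 and 195 against 315, 295 and 243 (0.65 ± 0.16, adjusted p = 0.0412), and Txnrd2 had 51.2, 52.3 and 64.5 against 86.1, 107 and 135 (0.96 ± 0.22, adjusted p = 0.0317).

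Glrx, glutaredoxin, which removes glutathione from protein thiols, was almost absent from Ctrl lenses at 9.60, 1.83 and 2.65 and had 30.8, 37.4 and 44.2 in Qk-iCKO lenses, a rise of 3.01 ± 0.54 (adjusted p = 0.0131). Its raw counts in Ctrl lenses were 9, 2 and 3, and without Ctrl 1 the log2 fold change was 3.97. The thioredoxins did not pass: Txn1 was higher without overlap (0.30 ± 0.14, adjusted p = 0.208), and mitochondrial Txn2 had −0.31 ± 0.37 (adjusted p = 0.627). Summed markers of macrophages, fibroblasts and endothelium were also higher in the same 3 libraries, and the part of these cells in the 4 genes was not tested.

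None of the 6 peroxiredoxins passed in the lens, with log2 fold changes between −0.33 for Prdx5 and 0.42 for Prdx6. Of the glutathione peroxidases, 1 of 5 passed as higher, where 8.38% of all genes tested did. Gpx3, a secreted, plasma form, had 10.7, 11.9 and 5.30 in Ctrl lenses and 467, 247 and 24.7 in Qk-iCKO lenses (4.74 ± 1.00, adjusted p = 0.0230). Its raw counts in Ctrl lenses were 10, 13 and 6, so it passed the filter on low counts through the Qk-iCKO libraries. Without Qk-iCKO 1 the log2 fold change was 3.86. The 3 Qk-iCKO lenses spread widely, and the cause was not tested. Gpx7 missed the threshold (1.32 ± 0.48, adjusted p = 0.124), and Gpx1, Gpx4 and Gpx8 lay between −0.12 and 0.16.

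Sod1, Sod2 and Cat, which remove superoxide and hydrogen peroxide inside cells, were between −0.24 and −0.16 and did not pass. Sod3, the secreted superoxide dismutase, was too low to test, with raw counts of 9, 4 and 0 in Ctrl lenses and 137, 32 and 2 in Qk-iCKO lenses. Gstm1, an abundant lens glutathione transferase, had 1738, 1879 and 1628 against 1175, 1146 and 946 and fell by 0.68 ± 0.15 (adjusted p = 0.0270). Gstp1 was lower without overlap and missed the threshold (−0.63 ± 0.24, adjusted p = 0.136), and Gsta4 (0.86), Mgst1 (0.59), Mgst3 (0.18) and Gstm5 (−0.06) had adjusted p-values from 0.143 to 0.897. Near-identical copies of the Gstm genes can share reads, which makes their split uncertain. Ftl1 (0.24 ± 0.25) and Fth1 (−0.15 ± 0.22) did not pass either.

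Both metallothioneins were higher. Mt1 (GRCm38 chr8:94179082-94180327) had 12.8, 11.9 and 8.83 normalised counts in Ctrl lenses and 319, 58.5 and 127 in Qk-iCKO lenses, a rise of 3.92 ± 0.65 (adjusted p = 0.0096), or 15.2-fold. Its raw counts in Ctrl lenses were 12, 13 and 10. The filter on low counts scales with library size, and Mt1 passed it only with the Qk-iCKO libraries. Mt2, its neighbour at chr8:94172664-94173568, had 1 raw count in each Ctrl lens and 180, 14 and 35 in the Qk-iCKO lenses. Over the groups 3 counts stood against 229, a ratio of 85.0 with a 95% interval from 28.7 to 415 that covers counting error only. The fit gave 6.02 ± 1.00 (adjusted p = 0.00970) for a gene that passed the filter through the Qk-iCKO libraries. Both genes were highest in Qk-iCKO 1 and lowest in Qk-iCKO 2, and that lowest library was still above every Ctrl lens. Without Qk-iCKO 1 the log2 fold changes were 3.05 for Mt1 and 4.87 for Mt2.

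**Figure D2:**
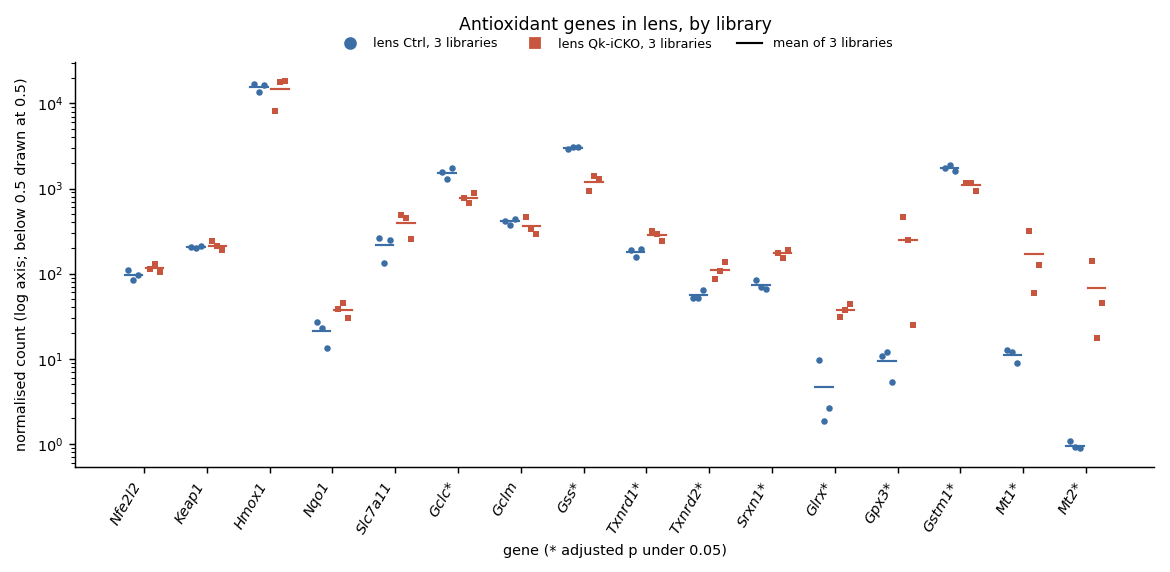
Normalised counts on a log axis of the members that passed the test in the lens, marked by an asterisk, and of the regulators and main NRF2 targets, in 3 Ctrl (circles) and 3 Qk-iCKO lenses (squares). Horizontal lines are means of 3 libraries. Gss and Gclc lie lower in every Qk-iCKO lens, Mt1 and Mt2 higher, and Gpx3 spreads from 24.7 to 467 among the Qk-iCKO lenses.

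With each lens library left out in turn, 2 of the 10 calls, Gss and Srxn1, held in all 6 fits. Gclc, Glrx and Mt1 held in 4 of 6, Gpx3 and Mt2 in 3, and Txnrd1, Txnrd2 and Gstm1 in 1. Losses came without Ctrl 1 (7 calls), Ctrl 2 (6), Ctrl 3 (8), Qk-iCKO 1 (1, Txnrd1), Qk-iCKO 2 (3) and Qk-iCKO 3 (2), while the direction of each of the 10 stayed the same in all of them. Scaled by total counts alone, Gclc (−0.69, adjusted p = 0.131), Txnrd1 (0.97, adjusted p = 0.0929) and Gstm1 (−0.38, adjusted p = 0.411) kept their direction and missed the threshold.

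The other genes of the pathway were described by lists of their own. Of 12 further NRF2 control genes tested in the lens 3 rose and 1 fell, where 8.38% of all genes rose and 3.88% fell. Sqstm1 (p62), an autophagy receptor that also binds KEAP1, went from 1254, 1180 and 1280 to 4570, 4391 and 6139 normalised counts (2.02 ± 0.19, adjusted p = 0.00105). Maff, a small MAF protein, rose by 2.67 ± 0.42 (adjusted p = 0.00782), and Bach1, the repressor that competes with NRF2 at its elements, by 1.14 ± 0.22 (adjusted p = 0.0176). With raw counts of 18, 14 and 7 in Ctrl lenses, Maff passed the filter through the Qk-iCKO libraries, so it adds nothing to the count of rises. Mafg, another small MAF, fell by 0.67 ± 0.14 (adjusted p = 0.0223).

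Of 17 further NRF2 targets tested in the lens, 2 rose and none fell, a share of rises near the 8.38% of all genes: Ephx1, an epoxide hydrolase (1.27 ± 0.30, adjusted p = 0.0335), and Blvrb, a biliverdin reductase (1.24 ± 0.30, adjusted p = 0.0364). Of 30 other antioxidant enzymes 3 rose and 4 fell (8.38% and 3.88% of all genes). Chac1, an enzyme that breaks down glutathione, had no count in any Ctrl lens and 215, 38 and 225 in Qk-iCKO lenses, at least 177-fold higher against a floor of 3 counts over the group. It passed the filter on low counts through the Qk-iCKO libraries, so its place among the 3 rises supports nothing. Txnip, an inhibitor of thioredoxin, rose by 2.45 ± 0.45 (adjusted p = 0.0140), and Gsto1, an omega-class transferase, by 0.79 ± 0.20 (adjusted p = 0.0423). The largest falls were those of Gstm2 (−1.89 ± 0.31, adjusted p = 0.00912), Sesn3, a stress-inducible sestrin (−1.18 ± 0.18, adjusted p = 0.00715), and Gstm7 (−1.0 ± 0.14, adjusted p = 0.00596).

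In NLPCs the libraries labelled Qk-/- were compared with WT. Of 37 members tested 3 were called higher (8.11%, where 4.74% of all 20371 genes tested were) and 7 lower (18.9%, where 5.96% were). The libraries of the groups did not overlap for 5 members that were higher (13.5%, where 15.9% of all genes were) and 10 that were lower (27%, where 19.3% were). Lower were Hmox1, Slc7a11, Txnrd1, Prdx2, Gpx8, Cat and Mt1, and higher were Gsta4, Sod3 and Fth1. The median over the members was −0.15, that over all genes tested 0.04. Above 0 lay 12 of the 37 members, where 10830 of all 20371 genes tested did. Markers of other cell types moved in the same libraries, among them those of oligodendrocyte lineage (2 of 4 tested lower, sums of 97.6 to 115 CPM in WT and 47.4 to 54.6 in Qk-/-), fibroblasts (1 of 5 lower, 68.8 to 79.2 against 33.3 to 35.3), dividing cells (3 of 5 lower, 779 to 846 against 637 to 672) and neurons (3 of 6 higher, 1256 to 1329 against 1560 to 1691). So did those of neural stem cells (2 of 6 lower, 2742 to 2907 against 2316 to 2617) and lens epithelium (1 of 4 higher, 151 to 170 against 188 to 266), while astrocyte markers overlapped (1 of 6 higher and 1 lower, 9292 to 9642 against 7391 to 10760). The part of these cells was not tested.

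Nfe2l2 had 5295, 5181 and 4959 normalised counts in WT and 4595, 4151 and 4849 in Qk-/- libraries, lower without overlap but past no threshold (−0.18 ± 0.09, adjusted p = 0.242). Keap1 overlapped between the groups (−0.22 ± 0.14, adjusted p = 0.351). Hmox1 had 1343, 1508 and 1767 against 850, 737 and 999.2, a difference of −0.83 ± 0.16 (adjusted p = 0.0147). Nqo1 had 1188, 903 and 1478 against 831, 435 and 1024 (−0.63 ± 0.30, adjusted p = 0.230), with the lowest value in Qk-/- 2. With the replicate number as a block Nqo1 passed (−0.69, adjusted p = 0.0426).

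The 2 enzymes that fell in the lens did not pass in NLPCs. Gclc had 4166, 4521 and 4681 in WT and 4472, 4776 and 4964 in Qk-/- libraries (0.09 ± 0.09, adjusted p = 0.570), and Gss differed by 0.18 ± 0.14 (adjusted p = 0.431). Gclm was higher without overlap, at 4219, 3935 and 4210 against 4601, 4580 and 4632, and missed the threshold (0.16 ± 0.08, adjusted p = 0.245). Slc7a11, at 15255, 14971 and 12490 against 11023, 11078 and 8888, was lower (−0.46 ± 0.12, adjusted p = 0.0472).

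Of the thioredoxin system only Txnrd1 passed, at 9156, 10267 and 9760 against 7909, 7544 and 7887 (−0.32 ± 0.08, adjusted p = 0.0415), and with the replicate block it did not (−0.32, adjusted p = 0.0689). Srxn1 had 1146, 1132 and 1281 against 1053, 776 and 1294 (−0.19 ± 0.18, adjusted p = 0.561). All 6 peroxiredoxins lay below 0, where 9541 of all 20371 genes tested did. Prdx2 passed, at 19604, 22067 and 22063 against 12939, 10156 and 14414 (−0.76 ± 0.13, adjusted p = 0.0101). Gpx8, a peroxidase of the endoplasmic reticulum, had 2114, 2469 and 2290 against 1299, 1217 and 1382, with groups far apart (−0.82 ± 0.11, adjusted p = 0.00372). Gpx3 was too low to test, with 16 of its 17 counts in Qk-/- 2, and Gpx7 had none.

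Catalase, which breaks down hydrogen peroxide in peroxisomes, had 13588, 13906 and 12728 normalised counts in WT and 10743, 10612 and 9689 in Qk-/- libraries (−0.37 ± 0.08, adjusted p = 0.0274). Sod3 went the other way, at 2398, 3023 and 2596 against 5684, 3609 and 5698 (0.90 ± 0.18, adjusted p = 0.0196), as did Gsta4, which conjugates lipid peroxidation products, at 827, 703 and 901 against 1855, 1464 and 2249 (1.2 ± 0.18, adjusted p = 0.0053). In both genes Qk-/- 2 was the lowest of its group and still above every WT library. Fth1, the ferroxidase subunit of ferritin, had 91381, 82964 and 98182 against 135024, 107915 and 125977 (0.44 ± 0.11, adjusted p = 0.0430). Mt1 had 106934, 109663 and 108191 against 72187, 44419 and 78575 (−0.73 ± 0.19, adjusted p = 0.0466), and Mt2 had 10 counts in Qk-/- 2 and none in the other 5 libraries.

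**Figure D3:**
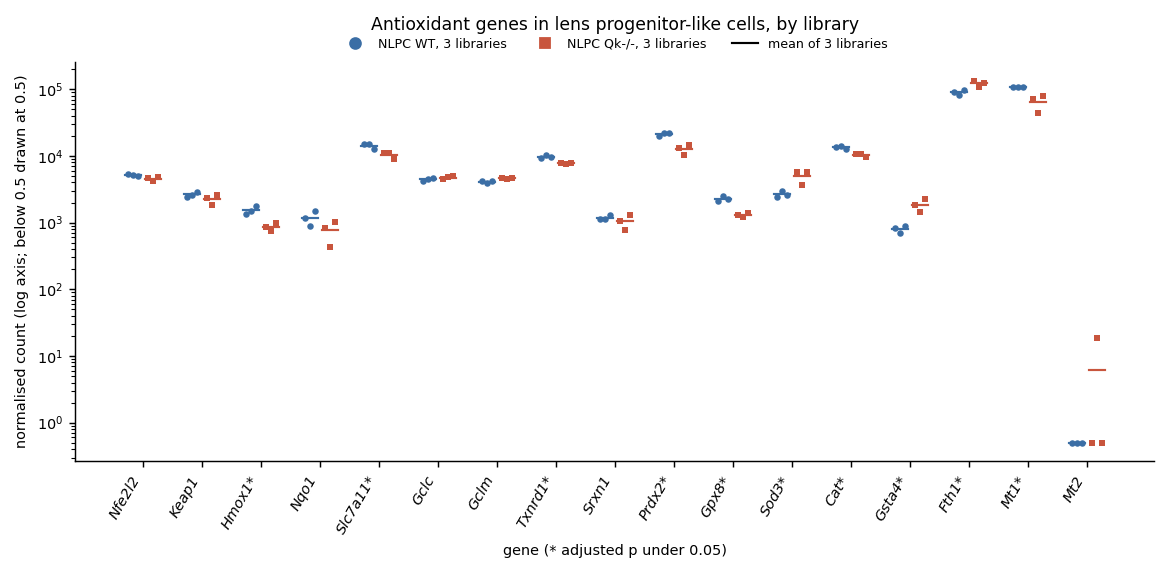
Normalised counts on a log axis of the members that passed the test in NLPCs, marked by an asterisk, and of the regulators and main NRF2 targets, in 3 WT (circles) and 3 libraries labelled Qk-/- (squares). Horizontal lines are means of 3 libraries, and values below 0.5 are drawn at 0.5. Of the genes shown, Mt1 is the highest in WT libraries (106934 to 109663) while Mt2 has no count in 5 of the 6 libraries.

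With each NLPC library left out in turn, Gpx8 and Gsta4 held in all 6 fits, Hmox1 and Prdx2 in 3, Mt1 in 2, and Slc7a11, Txnrd1, Sod3, Cat and Fth1 in 1. Without the shallow Qk-/- 2 all 10 calls held and Gstm1 was added. Without each of the other 5 libraries 5 to 8 calls were lost. With total counts alone Slc7a11, Txnrd1, Cat and Mt1 no longer passed, with adjusted p-values of 0.0761, 0.0915, 0.0643 and 0.0524. Slc7a11 also missed with RLE size factors (0.0573) and with at least 10 counts in every library (0.0555), and with every gene of at least 1 count in the fit Txnrd1 (0.115), Cat (0.0563) and Fth1 (0.143) did not pass. Of the further genes, 1 NRF2 control gene was higher, Nfe2l1 (0.36 ± 0.08, adjusted p = 0.0289), a relative of Nfe2l2, and 1 lower, Mtf1, the metal-sensing activator of metallothioneins (−0.51 ± 0.12, adjusted p = 0.0382), of 11 tested (4.74% and 5.96% of all genes).

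Of all NLPC genes tested 4.74% were higher and 5.96% lower, as the background of the next counts. Of 20 further NRF2 targets tested in NLPCs 1 was higher, Ephx1 (0.83 ± 0.20, adjusted p = 0.0336), and 3 were lower: Slc6a9, a glycine transporter (−1.02 ± 0.20, adjusted p = 0.0185), Idh1, an NADPH-forming dehydrogenase (−0.72 ± 0.11, adjusted p = 0.00489), and Ugdh (−0.58 ± 0.12, adjusted p = 0.0187). Of 32 other antioxidant enzymes Gstm2 (0.99), Sesn1 (0.63) and Oxr1 (0.59) were higher and Mt3 (−0.98), Msra (−0.71) and Oplah (−0.65) lower, with adjusted p-values from 0.00322 to 0.0333. Mt3, the brain metallothionein, was thus below WT along with Mt1.

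In HLE-B3 cells, the QKI KO pool was compared with WT. Of 37 members tested 19 rose (51.4%, where 17% of all 19049 genes tested rose) and 5 fell (13.5%, where 16.3% fell). Groups did not overlap for 21 members that were higher (56.8%, where 22% of all genes were) and 6 that were lower (16.2%, where 22.6% were). Most rises were small: 7 of the 19 reached 1.5-fold. The median over the members was 0.29, that over all genes tested −0.02. Fibroblast markers moved in the same libraries (1 of 5 tested higher and 2 lower, sums of 3889 to 3970 CPM in WT and 1936 to 2250 in QKI KO), as did those of lens epithelium (3 of 5 lower, 141 to 159 against 128 to 139), neurons (4 of 4 lower, 34.0 to 37.8 against 17.1 to 21.3), neural stem cells (1 of 3 lower, 96.1 to 110 against 42.6 to 45.4) and oligodendrocyte lineage (1 of 2 lower, 140 to 148 against 99.6 to 110). Their part was not tested. Macrophage markers summed to 3.92 to 5.74 in WT and 2.55 to 2.92 in QKI KO, with 1 of 4 tested lower.

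NFE2L2 fell slightly, from 9954, 10719 and 10012 normalised counts in WT to 8794, 8597 and 8229 in QKI KO libraries (−0.26 ± 0.06, adjusted p = 0.00225), while KEAP1 overlapped (0.06 ± 0.09, adjusted p = 0.630). HMOX1 had 20557, 18789 and 19661 against 18485, 16083 and 17800 and fell by 0.17 ± 0.06 (adjusted p = 0.0397). NQO1 had 10293, 9631 and 9130 against 11377, 11211 and 10951 and rose by 0.21 ± 0.06 (adjusted p = 0.0124). These 2 calls are near the threshold: HMOX1 held in 2 and NQO1 in 4 of 6 fits that left out a library, and NQO1 did not pass with total counts alone (0.15, adjusted p = 0.0530).

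Glutathione supply was split. GCLC (GRCh37 chr6:53362139-53481768) had 2307, 2345 and 2447 normalised counts in WT and 3811, 4052 and 3839 in QKI KO libraries, a rise of 0.72 ± 0.07 (adjusted p = 4.0e-07). SLC7A11 rose too, at 10422, 9833 and 10959 against 13102, 15220 and 13564 (0.42 ± 0.07, adjusted p = 8.8e-05). GSR fell from 2547, 2224 and 2395 to 1588, 1681 and 1918 (−0.47 ± 0.09, adjusted p = 5.2e-04). GCLM (−0.17 ± 0.08, adjusted p = 0.125) and GSS (−0.13 ± 0.09, adjusted p = 0.312) did not pass, although GCLM did without WT 2 (−0.24, adjusted p = 0.0423) or without QKI KO 2 (−0.23, adjusted p = 0.0496).

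Each fold change in HLE-B3 cells was also set beside the median of the 50 nearest genes tested. For GSR that median was −0.49, and the difference left was 0.03. It was 0.32 for GCLC, leaving 0.40, 0.26 for SLC7A11, leaving 0.16, 0.27 for PRDX6, leaving 0.15, and 0.31 for MGST3, leaving 0.23. HMOX1 was left with −0.04 and PRDX5 with 0.29. Of the 24 members called, 19 kept at least 50% of their log2 fold change. Copy number itself was not measured here.

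In the thioredoxin system TXN, TXNRD1 and TXNRD2 rose. TXNRD1 had 21265, 20736 and 21789 against 33039, 36243 and 33684 (0.69 ± 0.05, adjusted p = 5.1e-08), TXN had 6509, 5054 and 5869 against 8485, 7642 and 7937 (0.46 ± 0.08, adjusted p = 2.3e-04), and TXNRD2 rose by 0.28 ± 0.08 (adjusted p = 0.00951). SRXN1 was low, at 52.3, 27.3 and 46.2 against 70.4, 20.3 and 51.3 (0.17 ± 0.51, adjusted p = 0.844). In the GENCODE release used here for exon lengths, 90.7% of its exon bases are shared with another gene. The counts were made on another release, so how far the SRXN1 count is affected is uncertain. GLRX did not differ detectably (−0.02 ± 0.18, adjusted p = 0.952).

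Peroxiredoxins lay above 0 throughout, where 9173 of all 19049 genes tested did. Of the 6, 4 rose, where 17% of all genes tested did. PRDX1 had 5115, 4632 and 4728 against 7006, 6910 and 7485 (0.56 ± 0.06, adjusted p = 3.3e-06), PRDX2 1911, 2017 and 1510 against 2589, 2204 and 2738 (0.47 ± 0.11, adjusted p = 0.00240), and mitochondrial and peroxisomal PRDX5 4151, 4081 and 3864 against 5843, 4984 and 5981 (0.47 ± 0.07, adjusted p = 8.4e-05). PRDX6 rose by 0.41 ± 0.06. Groups stood apart in each of these 4 genes.

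Of 5 glutathione peroxidases 4 rose and 1 fell, where 17% of all genes tested rose and 16.3% fell. GPX8 had 5473, 4892 and 4986 against 10420, 9683 and 10287, close to a doubling (0.99 ± 0.06, adjusted p = 4.7e-09). GPX1, the main cytosolic form, had 2834, 2873 and 2821 against 4835, 3840 and 4804 (0.66 ± 0.08, adjusted p = 9.8e-06). In the GENCODE release used here for exon lengths, 39.9% of its exon bases are shared with another gene. The counts were made on another release, so whether this sharing affects them is uncertain. GPX3 rose at a low level, from 26.2, 40.4 and 22.6 to 47.2, 82.1 and 115 (1.45 ± 0.45, adjusted p = 0.0204). GPX4, which reduces lipid hydroperoxides, rose by 0.32 ± 0.07 (adjusted p = 0.00237). GPX7, an endoplasmic reticulum relative of GPX8, fell from 285, 222 and 289 to 115, 165 and 154 (−0.88 ± 0.22, adjusted p = 0.00554). The GPX3 call was lost without WT 1, WT 3 or QKI KO 3, where the log2 fold change was 1.38, 1.30 and 1.13.

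SOD1 had 11968, 10647 and 11343 normalised counts in WT and 16932, 15093 and 16352 in QKI KO libraries (0.51 ± 0.06, adjusted p = 7.6e-06), while SOD2 (−0.07) and CAT (−0.16) did not pass. SOD3 was not tested, with 34 counts over the WT libraries and 1 over the QKI KO libraries, a ratio of 0.0309 with a 95% interval of counting error from 0.000760 to 0.184. MGST1, a membrane-bound glutathione transferase, rose the most of all members, from 47.8, 23.2 and 26.7 to 121, 164 and 119 (2.04 ± 0.37, adjusted p = 3.9e-04). MGST3 had 2280, 2502 and 2229 against 3456, 3239 and 3535 (0.55 ± 0.07, adjusted p = 2.0e-05).

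The ferritin chains parted. FTL had 27754, 28018 and 23869 against 38337, 34699 and 37864 (0.48 ± 0.06, adjusted p = 2.2e-05), and FTH1 fell from 47800, 49711 and 46063 to 38082, 41629 and 41999 (−0.24 ± 0.05, adjusted p = 0.00240). Both ferritins have processed pseudogenes in the genome, and reads shared with such copies make these counts less certain. MT2A (GRCh37 chr16:56642496-56643409) had 17848, 17459 and 14998 against 30552, 24702 and 30155, 1.70-fold higher (0.76 ± 0.08, adjusted p = 1.5e-06).

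**Figure D4:**
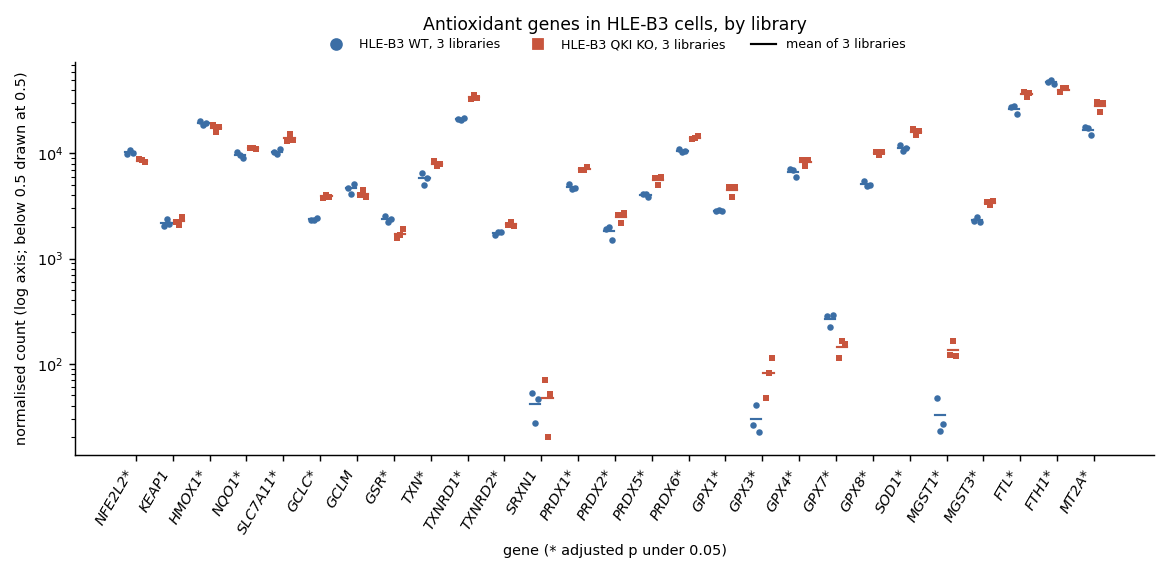
Normalised counts on a log axis of the members that passed the test in HLE-B3 cells, marked by an asterisk, and of the regulators and main NRF2 targets, in 3 WT (circles) and 3 QKI KO libraries (squares). Horizontal lines are means of 3 libraries. GPX8, TXNRD1 and MT2A lie higher in every QKI KO library, GSR and GPX7 lower, and SRXN1 overlaps at a low level (20.3 to 70.4).

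The counts of the further lists in HLE-B3 cells stand against 17% of all genes that rose and 16.3% that fell. Of 12 further NRF2 control genes tested 4 rose and 4 fell. NFE2L1 rose by 0.88 ± 0.05 (adjusted p = 3.0e-09), CUL3, the ubiquitin ligase scaffold that works with KEAP1, by 0.40 ± 0.08 (adjusted p = 6.2e-04), and its partner RBX1 by 0.31 ± 0.12 (adjusted p = 0.0487). The largest falls were those of SQSTM1 (−0.61 ± 0.06, adjusted p = 3.5e-07), BACH2 (−0.53 ± 0.14, adjusted p = 0.00801) and SLC30A1, a zinc exporter (−0.31 ± 0.08, adjusted p = 0.00441). Of 21 further NRF2 targets 7 rose and 3 fell, led by GSTA2 (2.70 ± 0.74, adjusted p = 0.00934, with 12, 8 and 1 counts in WT), GSTA1 (1.77 ± 0.41, adjusted p = 0.00267) and BLVRA (0.46), and by FECH (−0.41), ABCC4 (−0.27) and ABCC1 (−0.20). GSTA2 passed the filter on low counts through the QKI KO libraries, so it adds nothing to the count of rises. Of 30 other antioxidant enzymes 4 rose and 3 fell, with TXNIP (1.64 ± 0.07, adjusted p = 1.9e-11), GSTT2 (0.93) and GLRX5 (0.24) up, and SESN3 (−0.94), GGT7 (−0.53) and TXNL1 (−0.37) down.

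Across the systems, Txnrd1 passed the test in each, higher in Qk-iCKO lenses and QKI KO HLE-B3 cells and lower in the NLPC libraries labelled Qk-/-. Keap1, Gclm, Txn2, Prdx3, Prdx4, Sod2, Gstm5 and Gstp1 passed in none of those in which they were tested. Gclc was called lower in the lens and higher in HLE-B3 cells, and Mt1 higher in the lens and lower in NLPCs. The difference between the mouse and human systems was not tested.

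**Figure D5:**
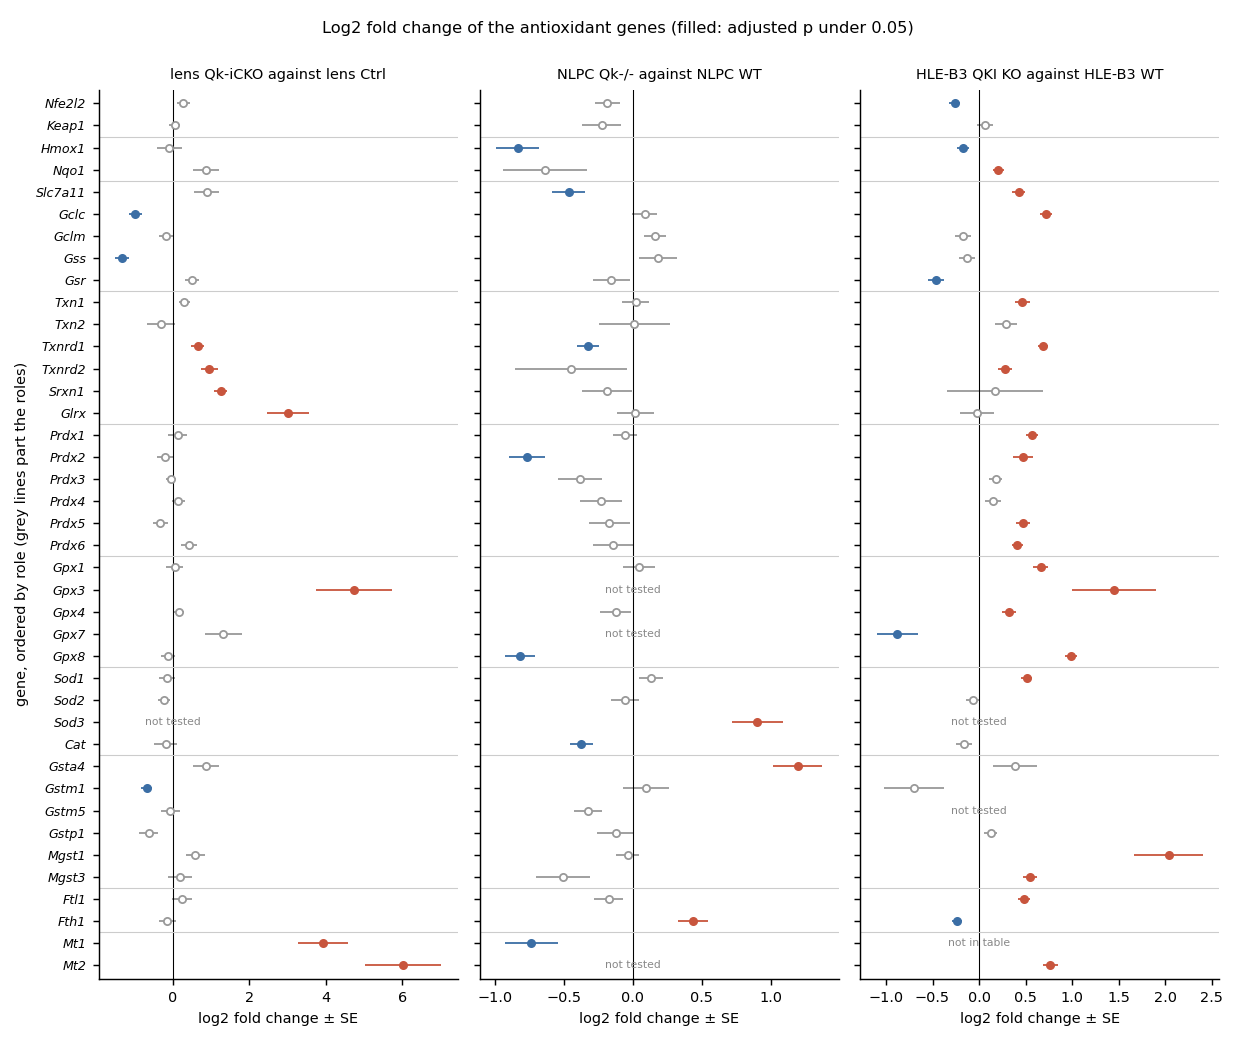
Log2 fold change (± SE) of each member in Qk-iCKO against Ctrl lenses, in NLPC libraries labelled Qk-/- against WT and in QKI KO against WT HLE-B3 cells, with a separate axis for each system. Filled points passed the test (red higher, blue lower) and open points did not. Lens points spread from −1.33 (Gss) to 6.02 (Mt2), NLPC points from −0.83 (Hmox1) to 1.2 (Gsta4), and HLE-B3 points lie mostly above 0.

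Whether the 2 mouse systems differ in their change was tested as an interaction in 1 fit over the 12 mouse libraries, in which all 40 members were tested. The change differed for 7 members (17.5%, where 8.55% of all 16697 genes tested did). Gpx7, Gpx3 and Mt2 had few or no counts in NLPCs, and the SE of their difference was 2158, 25.3 and 4.86. That they did not pass therefore says nothing about whether their change differed. The fit used 1 estimate of the spread for all groups, a limit because the common biological coefficient of variation was 0.260 in the lens and 0.411 in NLPCs. NLPC minus lens, the difference in log2 fold change was positive for Gss (1.61 ± 0.22, adjusted p = 0.00102), Gclc (1.17 ± 0.20, adjusted p = 0.00392) and Gstm1 (0.86 ± 0.22, adjusted p = 0.0315), which fell in the lens and did not pass in NLPCs. It was negative for Mt1 (−4.60 ± 0.70, adjusted p = 0.00200), Glrx (−2.93 ± 0.47, adjusted p = 0.00276), Srxn1 (−1.35 ± 0.24, adjusted p = 0.00502) and Txnrd1 (−0.88 ± 0.19, adjusted p = 0.0128). With the replicate block Gstm1 was no longer past the threshold (0.85, adjusted p = 0.0505), and Nqo1, Txnrd2 and Sod3 were. With total counts alone Gclc (0.83, adjusted p = 0.0984) and Gstm1 (0.52, adjusted p = 0.374) did not pass. Slc7a11 (−1.25 ± 0.38, adjusted p = 0.0613) and Nqo1 (−1.42 ± 0.46, adjusted p = 0.0838) went opposite ways in the 2 systems without passing.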

How the data were processed

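RNA-seq was read from 18 libraries, with 3 in each of 6 groups taken from the labels. The deposited files hold raw counts of reads per gene, which the authors made from TruSeq stranded libraries. The submitters' processing notes name STAR 2.6.1b, HTSeq 0.11.0, HISAT2 2.0.4, featureCounts, mm10 and hg19, without saying which tool made which table. The lens table identifies genes by symbol alone.

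Each system was fitted on its whole table with edgeR 4.0.16 (limma 3.58.1, R 4.3.3): genes were kept by filterByExpr (count 10, total 15), scaled by TMM and tested by the quasi-likelihood test, with Benjamini-Hochberg adjustment over all genes tested and a threshold of 0.05. Every adjusted p-value comes from these fits. The lens and NLPC changes were compared as an interaction in a joint fit. The method was tested on simulated data. Levels per kilobase used merged exon lengths of GENCODE on GRCm38 and GRCh37. With 3 libraries against 3, an exact permutation test of a single gene could not go below p = 0.1, so none was run. Common biological coefficients of variation were 0.260 in the lens, 0.411 in NLPCs and 0.168 in HLE-B3 cells, and lens libraries were the shallowest, which limits what the lens fit could detect.

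The members and the lists of pathway and marker genes were chosen with earlier results of these data known. Named were, in each system, the members past the threshold, with every library given for at most the 15 largest changes; Nfe2l2, Keap1, Hmox1, Nqo1, Gclc, Gclm, Slc7a11, Srxn1, Txnrd1, Mt1 and Mt2 throughout; and from each pathway list the 3 largest rises and 3 largest falls past it. Members named beyond that, such as Gsr, Txn1 and Gpx7 in the lens, were chosen after their values were seen. Replicates of a group differed by more than sampling noise.

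Same-numbered libraries had correlations of their deviations from the group means of 0.23, 0.13 and 0.52 in the lens and of 0.12, 0.32 and 0.15 in NLPCs. However, lens Ctrl 2 matched Qk-iCKO 1 best, and NLPC WT 1 matched Qk-/- 3 best, so a pairing by number is not established. In HLE-B3 cells the correlations were 0.06, 0.06 and −0.05. Alternatives were other scalings, other filters, DESeq2 1.42.0, the replicate block, other call rules, the neighbouring genes and leaving out each library.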

Additional observations from a re-analysis of the deposited data

Results flagged for a closer look

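Results are given here where the change under Qk deletion differed between lens and NLPCs by the interaction test of edgeR, as log2 fold change of NLPC minus lens. Gss (1.61, adjusted p = 0.00102), Gclc (1.17, adjusted p = 0.00392) and Gstm1 (0.86, adjusted p = 0.0315) lay higher in the NLPC contrast. Mt1 (−4.60, adjusted p = 0.00200), Glrx (−2.93, adjusted p = 0.00276), Srxn1 (−1.35, adjusted p = 0.00502) and Txnrd1 (−0.88, adjusted p = 0.0128) lay lower. The contrasts also differ in cell type, control genotype, and in whether Qk counts were lower in the deletion libraries, which cannot be told apart. No group of 3 libraries was tested for outlying values.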

How the results depend on the processing

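In the lens, 7 members rose and 3 fell. The rises numbered 4 with at least 10 counts in every library, 13 at an unadjusted p under 0.05, and 1 to 10 with each library left out. The falls numbered 1 with total counts alone and 1 to 3 with each library left out. In NLPCs, 3 members were higher and 7 lower: the former numbered 1 to 4 with each library left out, and the latter 1 to 7, 3 with total counts alone and 4 at 1.5-fold or more. In HLE-B3 cells 19 rose and 5 fell, which became 7 and 1 at 1.5-fold or more, and 17 to 21 and 4 to 7 with each library left out. The lens and NLPC changes differed for 7 members, 14 at an unadjusted p and 6 to 10 with each library left out. The fewest lens rises, 1, came without Ctrl 3.

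Total counts alone reversed lens Hmox1 (0.10) and Gclm (0.19), moved the median of all lens genes from 0.01 to 0.29, and split the lens calls 768 higher to 116 lower in place of 1023 to 473. In the joint fit it moved the median to −0.34 and the calls to 156 and 862 in place of 536 and 891. Without Qk-iCKO 1, Keap1 was −0.049 and Hmox1 0.21, the ranges over libraries left out being −0.049 to 0.13 and −0.28 to 0.21. SRXN1 in HLE-B3 ranged from −0.22 without QKI KO 1 to 0.54 and was −0.05 without WT 2, and GSR less its neighbours was 0.027. The cause was not tested.

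Over all genes, 2521 were called in the lens with every gene of at least 1 count (1496 in the reported fit), 884 with total counts alone, 3060 in NLPCs with every gene of at least 1 count and 3826 with DESeq2 (2179), and 2284 in the joint fit with DESeq2 (1427). The replicate block gave 7 higher and 3 lower members in the lens, 3 and 7 in NLPCs, 19 and 5 in HLE-B3 cells and 9 in the joint fit. It changed no call of a member other than those of Txnrd1 and Nqo1 in NLPCs and of Gstm1, Nqo1, Txnrd2 and Sod3 in the joint fit. In HLE-B3 cells only replicate 2 correlated best with its own number.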

Other observations

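Genes named here were chosen after their values were seen. In the lens, Mt3, the brain metallothionein, had no count in Ctrl and 24, 7 and 4 counts in Qk-iCKO lenses, at least 13-fold higher against a floor of 3 counts over the group. Cbr3, a carbonyl reductase and NRF2 target, had none against 7, 4 and 5, at least 5.94-fold higher. Both were too low to test. In NLPCs the library Qk-/- 2 held 16 of the 17 counts of Gpx3 and all 10 of Mt2.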
